A study of Homo sapiens with 240 samples.

Results

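The transcriptional response to 991 was followed at 2 h and 4 h in HEK 293T cells labelled AMPK WT, with 3 libraries given 991 for 2 h, 3 given 991 for 4 h and 3 given DMSO at 0 h. These 9 of the 240 libraries of the series were chosen by their labelled genotype, treatment and time. Of 27234 genes in the table, 12957 had at least 1 TPM (a transcript level scaled by transcript length and by library) in 3 or more of the 9 libraries and were tested. HEK 293T is a transformed line derived from human embryonic kidney, labelled here as kidney; the medium was DMEM supplemented with 10% serum and antibiotics, and polyadenylated RNA was sequenced. A further 3 sets of 9 libraries with the same times of 991 are set beside these, from AMPK Knock out (KO) cells in the same table and from the TFEB+TFE3 WT and ESRRA WT cells of other experiments, each with its own DMSO libraries. The labels give no dose of 991 and do not say whether KO cells are 1 clone or whether replicates are separate cultures, so a p-value here covers the spread between libraries, which may be technical. DMSO was used only at 0 h, so 991 cannot be told apart from the time in culture and handling. For another 3 WT libraries the description gives 991 at 2 h while the treatment tag and column code give Phen, and these were not counted as 991.

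AMPK is a kinase of an α catalytic, a β scaffold and a γ nucleotide-binding subunit that is switched on when AMP and ADP rise against ATP. 991 is a direct activator that binds between the α and β subunits, so it acts without an energy deficit. Active AMPK is known to restrain fat, sterol and protein synthesis and mTORC1 signalling and, through the folliculin (FLCN) and FNIP1 complex, to send TFEB and TFE3 to the nucleus, where they switch on lysosomal genes. Values below are TPM per library in the order of replicates 1, 2 and 3, and differences are in log2(TPM + 1) ± standard error from limma, with Benjamini-Hochberg adjusted p-values and calls at an adjusted p under 0.05. That scale understates the change of genes near 1 TPM.

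Summed over listed genes, the 9 libraries held 405616 to 409317 TPM, and 12474 to 13096 genes stood at 1 TPM or more. TPM keep no read counts, so depth is unknown. Of 14 markers of kidney tubule and podocyte, 12 were under 1 TPM in all 9 libraries, and their summed level was 7.79 to 8.93 TPM at 2 h and 8.17 to 9.71 at 4 h against 9.29 to 9.68 under DMSO, so the defining markers of adult kidney are all but absent. The 6 endothelial markers were all under 1 TPM, and so were 7 of 8 blood cell markers (8 at 4 h). Of 8 fibroblast markers only 4 were under 1 TPM in all libraries of each group. Their summed level was 11.7 to 13.5 TPM under DMSO, 11.6 to 13 TPM at 2 h and 12.9 to 17.6 TPM at 4 h. A list of 10 genes typical of this line summed to 313 to 345 TPM under DMSO, 334 to 350 TPM at 2 h and 374 to 460 TPM at 4 h. The libraries numbered 1 stood apart in every group. Within DMSO the median absolute log2 difference between genes was 0.109 for replicates 1 and 2 and 0.0836 for 1 and 3, against 0.0593 for 2 and 3. At 2 h the same distances were 0.133, 0.119 and 0.057, and at 4 h they were 0.16, 0.158 and 0.0781. Same-numbered libraries deviated together between 2 h and DMSO and between 4 h and 2 h. Those of KO cells did so between either time and DMSO. For these comparisons most counts are also given with the replicate number as a block. Between 4 h and DMSO in WT cells replicates 1 and 2 deviated together and replicate 3 hardly did, so those libraries are not shown to be independent.

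At 2 h the calls were few and mostly falls in the fit without a replicate block, and many more with the block. Values of named genes in WT cells come from the fit without it unless stated, though same-numbered libraries deviated together. Against DMSO 35 genes rose (0.27% of those tested) and 218 fell (1.68%). Only INSIG1 exceeded a difference of 1 among the rises and no gene did among the falls, and the median over all genes tested was -0.02. With the replicate block 606 genes rose (4.68%) and 1288 fell (9.94%), and without the libraries numbered 1 the counts were 752 and 1389. Without the libraries numbered 2, or those numbered 3, no gene was called in either direction. The counts rested on single libraries too: they were 2 higher and 16 lower without DMSO replicate 1, 0 and 2 without DMSO replicate 2, 0 and 0 without DMSO replicate 3, 1 and 11 without 2 h replicate 2, 0 and 3 without 2 h replicate 3, and 167 and 555 without 4 h replicate 1. Scaled by quantiles the falls numbered 119. By 4 h 1998 genes rose against DMSO (15.4%) and 1361 fell (10.5%), with a median over all genes of 0.03, and 8 rises and 12 falls exceeded 1. With the replicate block 3412 rose and 2418 fell. The split without it moved to 1547 higher and 1701 lower with median-ratio scaling and to 1488 each way with quantile normalization. Leaving out 1 library lowered these counts by more than 1.5 times for DMSO replicate 1 (1118 higher, 775 lower), DMSO replicate 2 (1264 and 843), DMSO replicate 3 (1108 and 776) and, for the rises, 4 h replicate 3 (1213). Without the libraries numbered 1 in all 3 groups they were 3152 and 2291, without those numbered 2 they were 1 and 0, and without those numbered 3 no gene was called. These fits hold 6 libraries.

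**Figure D1:**
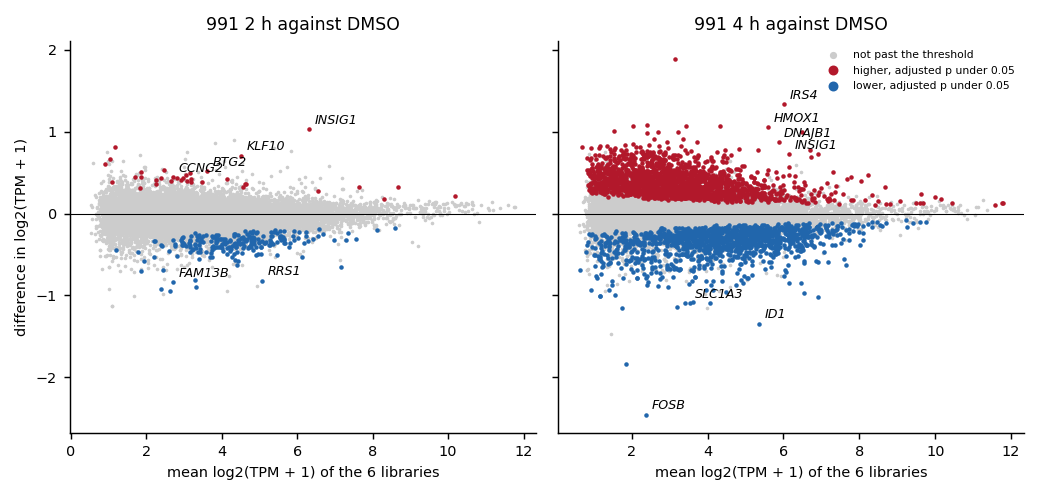
Difference in log2(TPM + 1) between 991 and DMSO for each of 12957 genes, at 2 h (left) and 4 h (right), against the mean log2(TPM + 1) of the 6 libraries compared. Red points are the genes that rose (35 at 2 h, 1998 at 4 h) and blue points those that fell (218 and 1361), and the points spread further from 0 at 4 h.

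The promoters of INSIG1 and CCNG2, the 2 h rise with the largest difference and the named rise with the smallest standard error, are shown because each holds the 6-letter E-box CACGTG, which basic helix-loop-helix factors such as MYC and the TFEB family are known to bind. The sequences are the 150 bases before the start, from RefSeq GRCh38.p14, 5′ to 3′ on the plus strand, with the match in capitals.
INSIG1, chr7:155297728-155297877: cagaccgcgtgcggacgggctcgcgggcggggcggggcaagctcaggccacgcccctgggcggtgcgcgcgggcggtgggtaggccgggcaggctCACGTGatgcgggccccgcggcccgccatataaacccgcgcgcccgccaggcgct
CCNG2, chr4:77157057-77157206: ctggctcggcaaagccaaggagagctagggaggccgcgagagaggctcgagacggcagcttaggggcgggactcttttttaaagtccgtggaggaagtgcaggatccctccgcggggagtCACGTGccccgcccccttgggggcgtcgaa
The match lay 55 bases before the RefSeq start in INSIG1 and 30 bases before it in CCNG2. The transcript listed in the deposited table begins 106 bases upstream of the RefSeq start in INSIG1, so there the match lies inside that transcript, and 3 bases upstream in CCNG2. Among the other promoters printed below, the listed transcript begins 50 bases upstream of the RefSeq start in FOS, 42 in CENPA and 121 in HMMR, and downstream of it in EGR1 and JUNB. CACGTG, which reads the same on both strands, occurred in the 250 bases before the start of 11.4% of the 9491 tested genes that had a window. Among the lysosomal hydrolases it occurred in 9 of 26 windows (34.6%), and among ribosome biogenesis genes in 4 of 39 (10.3%). Autophagy genes had it in 2 of 34 (5.88%), circadian clock genes in 5 of 15 (33.3%) and KLF factors in 5 of 9 (55.6%). A high share is thus not particular to lysosomal genes, and the share among the 2 h rises was not counted. A match is a description of letters and says nothing of binding in these cells.

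INSIG1, chromosome 7, 155297772 to 155310235 on GRCh38, encodes the endoplasmic reticulum protein that holds back the sterol sensor SCAP and its SREBP cargo. It stood at 49.6, 58.5 and 55.8 TPM under DMSO, at 96, 121 and 121 TPM at 2 h and at 77.2, 93.7 and 103 TPM at 4 h. All libraries at either time of 991 lay above all DMSO libraries. The difference was 1.03 ± 0.12 at 2 h (adjusted p = 0.012, between 4.3e-17 and 0.71 over 18 other settings, 11 of them past the threshold) and 0.73 ± 0.12 at 4 h (adjusted p = 0.0039). CCNG2, chromosome 4, 77157204 to 77170060, an unconventional cyclin tied to cell cycle exit and a known FOXO target, stood at 4.67, 4.66 and 4.49 TPM under DMSO, 6.81, 6.62 and 6.39 TPM at 2 h and 6.25, 5.94 and 6.31 TPM at 4 h. The libraries of 991 and DMSO did not overlap at either time, and the difference at 2 h was 0.44 ± 0.05 (adjusted p = 0.012).

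Other rises at 2 h fell into genes whose level was held at 4 h and genes whose level was not. HBP1, an HMG-box repressor of cell cycle genes, stood at 6.89, 6.29 and 6.53 TPM under DMSO, 9.55, 9.64 and 9.82 TPM at 2 h and 13, 10.7 and 10.4 TPM at 4 h, with differences of 0.50 ± 0.08 (adjusted p = 0.020) and 0.71 (adjusted p = 0.0010). KLHL24, an adaptor of a cullin ubiquitin ligase, had 3.00, 2.58 and 2.72 TPM at 2 h against 2.07, 1.66 and 1.59 TPM under DMSO, and 3.75, 3.38 and 3.65 TPM at 4 h. The autophagosome protein gene GABARAPL1 had 18.6, 20.2 and 19.7 TPM at 2 h against 15.1, 14.2 and 13.7 TPM under DMSO (0.42, adjusted p = 0.016). In these 3 genes the libraries of 991 and DMSO did not overlap, and the mean at 4 h was above that at 2 h. KLF10 and BTG2 had lower means at 4 h than at 2 h. KLF10, a zinc finger repressor induced early by TGF-β, stood at 19.9, 14.4 and 16.8 TPM under DMSO, 34.8, 25.3 and 25.3 TPM at 2 h and 18.7, 17.1 and 17.8 TPM at 4 h, a rise of 0.70 ± 0.14 at 2 h (adjusted p = 0.039) with a difference of 0.08 at 4 h. BTG2, an antiproliferative partner of the CCR4-NOT deadenylase, had 15.5, 12.9 and 12.6 TPM at 2 h against 10.9, 8.09 and 8.92 TPM under DMSO (0.51 ± 0.11, adjusted p = 0.047) and 10.5, 10.3 and 10.1 TPM at 4 h. MYCL of the MYC family (0.51), the mRNA capping enzyme gene RNGTT (0.46), the ephrin receptor gene EPHA3 (0.45) and GNRHR2 (0.61) completed the 10 largest rises that the naming rule takes.

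The 2 h falls were led by FAM13B and RRS1. FAM13B had 4.20, 3.54 and 4.01 TPM at 2 h against 8.41, 7.43 and 7.53 TPM under DMSO (-0.84 ± 0.07, adjusted p = 0.0053), and 3.73, 3.72 and 3.77 TPM at 4 h. RRS1, chromosome 8, 66429028 to 66430733, an assembly factor of the large ribosomal subunit, stood at 41.1, 45.9 and 44.5 TPM under DMSO, 23.5, 24.8 and 25 TPM at 2 h and 30.4, 26.6 and 26.8 TPM at 4 h (-0.82 ± 0.07 at 2 h, adjusted p = 0.0053; -0.63 at 4 h, adjusted p = 0.00095). Both were lower in every 991 library than in any DMSO library. TOE1, a deadenylase that trims the ends of small nuclear RNAs, had 16.7, 15.1 and 16.6 TPM at 2 h against 25.4, 25.2 and 25.5 TPM under DMSO. PPRC1, the PGC-1-related coactivator, had 15.6, 17.3 and 16.8 TPM against 23.6, 26.2 and 25.8 TPM. MAT2A, which makes S-adenosylmethionine, fell at 2 h to 120, 106 and 115 TPM, against 172, 179 and 186 TPM under DMSO, and its 4 h libraries of 193, 132 and 142 TPM overlapped DMSO. The tRNA methyltransferase subunit gene TRMT61A (-0.55), GDPGP1 (-0.58), C15orf39 (-0.54) and the snoRNA host genes SNHG17 (-0.57) and SNHG15 (-0.53) made up the rest of the 10 largest falls that the rule takes.

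Ribosome biogenesis genes were the listed group with the most falls at 2 h. Of 48 tested, 13 fell and none rose, against 1.68% of all genes that fell, and the median was -0.14 against -0.02 over all genes. With the replicate block 22 fell and 3 rose, against 9.94% and 4.68% of all genes. At 4 h 26 fell and none rose, against 10.5% of all genes that fell, with a median of -0.24 against 0.03. NOP2, which methylates the large ribosomal RNA, stood at 62.1, 64.6 and 61.2 TPM under DMSO, 49.4, 47.5 and 44.5 TPM at 2 h and 41.8, 44.7 and 42.2 TPM at 4 h. PPAN, a factor of large subunit maturation, had 26.4, 24.9 and 24.2 TPM at 2 h against 36, 36.8 and 34.8 TPM under DMSO, and 27.4, 27.8 and 24.8 TPM at 4 h. Neither gene overlapped DMSO at either time. Between 2 h and 4 h 7 of the 48 fell further and none rose (18 and 2 with the replicate block). Of 57 cytosolic ribosomal protein genes 1 rose at 2 h and 9 at 4 h (15.8%, against 15.4% of all genes), none fell, and with the replicate block 21 rose at 2 h and none fell. Their medians were 0.11 at 2 h and 0.08 at 4 h, and both were 0.04 with quantile normalization. These genes have many processed copies in the genome, so their values are less certain.

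**Figure D2:**
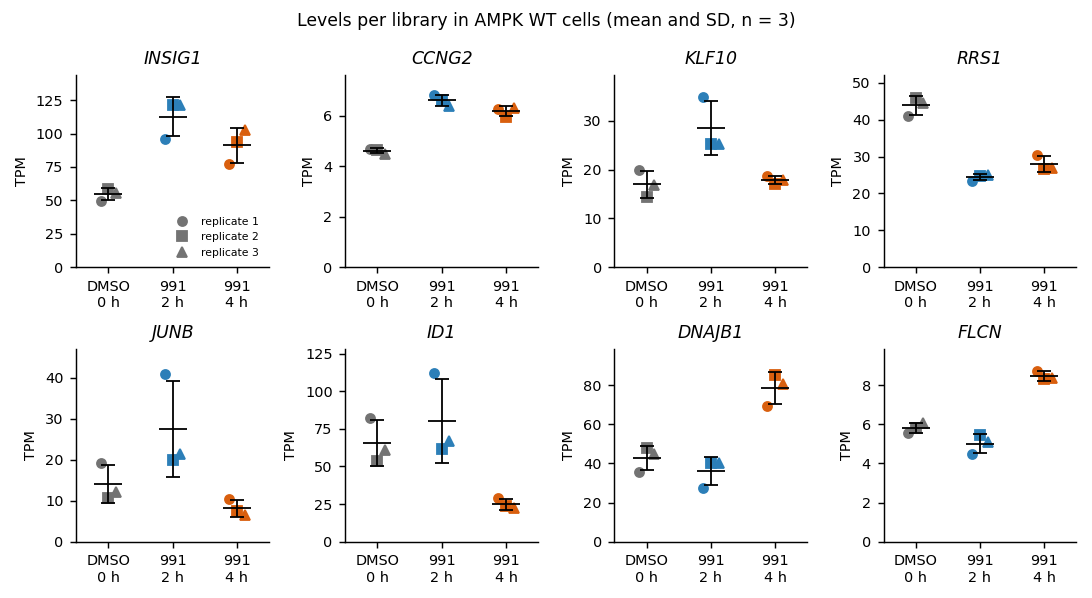
TPM of INSIG1, CCNG2, KLF10, RRS1, JUNB, ID1, DNAJB1 and FLCN in each library under DMSO at 0 h and with 991 at 2 h and 4 h. Marker shape gives the replicate number, and the bar and whisker are the mean and SD of 3 libraries. RRS1 falls by 2 h, KLF10 and JUNB are highest at 2 h, and ID1 and FLCN have 4 h libraries clear of both other groups.

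The 10 largest 4 h rises that the rule takes came from unrelated functions. IRS4, the insulin receptor substrate for which this line is known, stood at 28.9, 49.8 and 43.7 TPM under DMSO, 29.5, 64.8 and 57.6 TPM at 2 h and 74.4, 126 and 113 TPM at 4 h (1.33 ± 0.31, adjusted p = 0.015). HMOX1, the inducible haem oxygenase, stood at 29.6, 36.4 and 31.7 TPM, then 36.4, 49.5 and 50.4 TPM, then 69.9, 69.2 and 66.5 TPM in the same order (1.06 ± 0.12 at 4 h, adjusted p = 0.0010). In both genes every 4 h library exceeded every DMSO library. CCDC77 had 13.4, 15.9 and 14.4 TPM at 4 h against 6.24, 6.29 and 6.64 TPM under DMSO (1.07 ± 0.08, adjusted p = 0.00048). ZNF449, a zinc finger gene, had 4.46, 4.94 and 5.54 TPM against 1.63, 1.91 and 2.02 TPM (1.07 ± 0.10, adjusted p = 0.00057). The serine dehydratase-like gene SDSL (1.08), the meiotic recombination gene MND1 (1.06), the monocarboxylate carrier family gene SLC16A9 (0.99), the complex II assembly factor gene SDHAF4 (0.99) and the transposase-derived PGBD5 (0.98) also rose. RHOB, a small GTPase, was 1.00 ± 0.30 higher (adjusted p = 0.037), but that value leaned on replicate 1: its 4 h libraries had 229, 92.5 and 91.7 TPM against 68.5, 57.1 and 61.2 TPM under DMSO, and without the libraries numbered 1 the difference was 0.63.

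The largest 4 h falls were of growth-factor-responsive transcription factors and of BMP targets. FOSB had 2.54, 0.673 and 0.869 TPM at 4 h against 26.1, 5.37 and 9.57 TPM under DMSO (-2.46 ± 0.72, adjusted p = 0.035). EGR3 had 2.41, 0.295 and 0.557 TPM against 11, 3.02 and 5.50 TPM (-1.84, adjusted p = 0.031). Replicate 1 was the highest library of both genes in each group, and 991 and DMSO libraries did not overlap. Outside these families the falls included SLC1A3, a glutamate transporter (8.23, 6.10 and 6.61 TPM against 19.4, 14.2 and 14.7 TPM; -1.10), and HEXIM1, the inhibitor of the transcription elongation kinase P-TEFb (13.8, 9.04 and 9.33 TPM against 27.3, 21.1 and 22.7 TPM; -1.09). CYP26A1, which breaks down retinoic acid (-1.08), and AMD1, which commits S-adenosylmethionine to polyamine synthesis (-1.02), fell as well.

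Between the times many genes moved further. At 4 h against 2 h 1451 genes rose (11.2%) and 471 fell (3.64%), with a median over all genes of 0.04. With the replicate block the counts were 3086 (23.8%) and 1351 (10.4%), with median-ratio scaling 940 and 848, and with quantile normalization 704 and 592. Leaving out 1 library lowered the counts by more than 1.5 times for each 2 h library (768 higher and 217 lower without replicate 1, 760 and 255 without replicate 2, 813 and 251 without replicate 3), for 4 h replicate 3 (748 and 266) and for DMSO replicate 3 (962 and 294). Without all libraries numbered 1 they were 2189 and 857, and without those numbered 2 or 3 no gene was called. The comparison of 4 h with 2 h and that of 2 h with DMSO share the 2 h libraries, so their values are given side by side. For BMP targets and immediate early genes the list medians, and for DNAJB1, BAG3 and FLCN the differences from DMSO, had opposite signs at the 2 times. None of DNAJB1, BAG3 and FLCN was called at 2 h against DMSO in the fit without a block.

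BMP and TGF-β ligands signal through SMAD factors, which switch on the ID genes, dominant-negative partners of basic helix-loop-helix factors, and the feedback inhibitors SMAD6, SMAD7 and NOG. Of 16 listed targets tested, none was called at 2 h, where the median was 0.20 against -0.02 over all genes. With the replicate block 7 were called higher, against 4.68% of all genes, and none lower. At 4 h against DMSO 12 fell and none rose (median -0.58), where 10.5% of all genes fell. At 4 h against 2 h 12 fell and none rose (median -0.72), where 3.64% did. These counts stood at 12 of 16 at 4 h under both other scalings. ID1, chromosome 20, 31605283 to 31606514, stood at 82.3, 53.3 and 61 TPM under DMSO, 112, 61.6 and 67 TPM at 2 h and 29, 23.5 and 22.3 TPM at 4 h. The 2 h libraries overlapped DMSO (0.26 ± 0.23, adjusted p = 0.59), and the 4 h libraries lay below both other groups (-1.34 ± 0.23 against DMSO, adjusted p = 0.0042; -1.61 ± 0.23 against 2 h, adjusted p = 0.0048). ID3 stood at 145, 124 and 121 TPM, then 181, 154 and 148 TPM, then 66.3, 66.7 and 64.2 TPM, with the 3 groups apart from one another. Its difference at 2 h was 0.30 (adjusted p = 0.11), which passed with the replicate block, and at 4 h it was -0.97 ± 0.09 (adjusted p = 0.00056). SMAD6 stood at 16, 13.3 and 14.1 TPM under DMSO, 23.3, 16.5 and 17.8 TPM at 2 h and 7.42, 5.88 and 5.56 TPM at 4 h, and SMAD7 at 25.9, 17.2 and 19.5, then 37.6, 23.6 and 24.1, then 12.1, 9.44 and 9.51 TPM. Every 2 h library of SMAD6 exceeded every DMSO library, while those of SMAD7 overlapped them. At 2 h both passed with the replicate block but not in the fit without it (0.37, adjusted p = 0.20, and 0.41, adjusted p = 0.31), and at 4 h both fell (-1.09 ± 0.14 and -0.93). NOG, the secreted BMP antagonist, had differences of 0.50 at 2 h (adjusted p = 0.069), -0.53 at 4 h (adjusted p = 0.012) and -1.03 between the times.

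In the TFEB+TFE3 WT and ESRRA WT experiments, which have their own DMSO libraries, BMP targets were called higher at 2 h by the test without a block. ESRRA WT libraries held FLCN at 979 to 1130 TPM, far above AMPK WT libraries, and its bearing on other genes was not tested. Of the 16, 10 rose and none fell at 2 h in TFEB+TFE3 WT cells, where 7.04% of all genes rose, and 11 rose and none fell in ESRRA WT cells, where 2.51% did. At 4 h 9 fell and 4 rose in TFEB+TFE3 WT cells, against 15.8% and 26% of all genes, so the rises were near that share. In ESRRA WT cells 11 fell and 2 rose, against 12.1% and 22.3%. ID1 stood at 27, 31.5 and 26.7 TPM under DMSO, 42.3, 41.3 and 40.2 TPM at 2 h and 17.8, 18.5 and 15.3 TPM at 4 h in TFEB+TFE3 WT cells, and at 25.4, 21.3 and 25.5, then 31.3, 31.2 and 34.1, then 10.8, 12.9 and 8.97 TPM in ESRRA WT cells. The 3 groups did not overlap in either experiment. Its 2 h difference was 0.53 (adjusted p = 0.0020) in TFEB+TFE3 WT cells and 0.41 (adjusted p = 0.043) in ESRRA WT cells, and at 4 h it was -0.69 and -1.09.

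**Figure D3:**
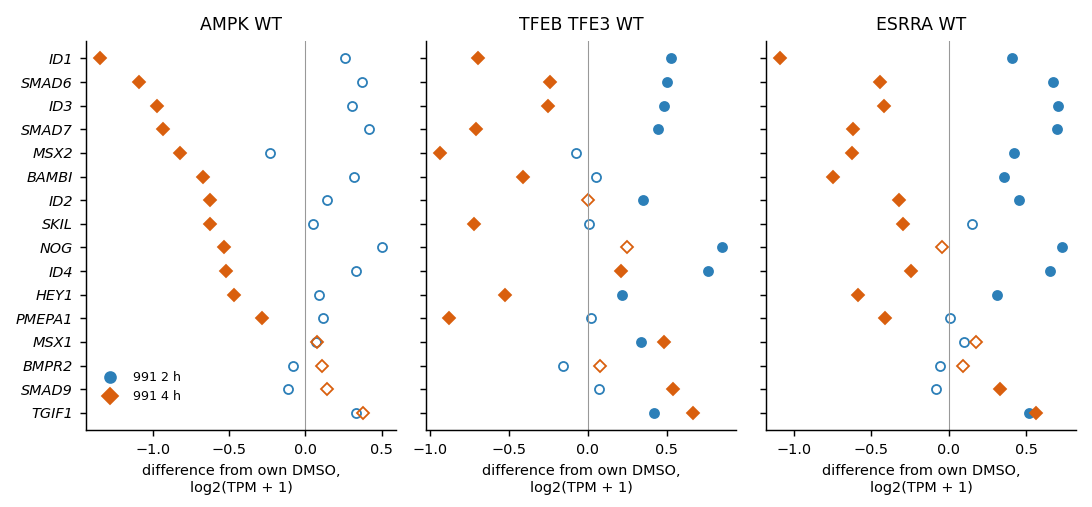
Difference in log2(TPM + 1) between 991 and DMSO for 16 BMP and TGF-β targets in AMPK WT, TFEB+TFE3 WT and ESRRA WT cells, with circles for 2 h and diamonds for 4 h. Filled markers passed the test: none of 16 at 2 h in AMPK WT cells, 10 in TFEB+TFE3 WT and 11 in ESRRA WT cells, and at 4 h 12, 13 and 13 in either direction.

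Immediate early genes are transcribed within minutes of a growth factor or stress signal without new protein synthesis. Their promoters carry serum response elements (CArG boxes) or cyclic AMP response elements, and those of EGR1, FOS and JUNB are shown because these genes fell at 4 h, or between 2 h and 4 h, and each holds such letters near its start. Capitals mark CArG boxes in EGR1 and TGACG, the core of a cyclic AMP response element, in FOS and JUNB; the source and strand are those above.
EGR1, chr5:138465329-138465478: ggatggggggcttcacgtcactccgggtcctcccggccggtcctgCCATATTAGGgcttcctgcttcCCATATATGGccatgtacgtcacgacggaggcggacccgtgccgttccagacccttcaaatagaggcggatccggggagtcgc
FOS, chr14:75278678-75278827: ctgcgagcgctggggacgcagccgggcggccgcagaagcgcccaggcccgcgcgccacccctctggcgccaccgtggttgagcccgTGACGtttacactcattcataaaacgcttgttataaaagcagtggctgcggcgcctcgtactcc
JUNB, chr19:12791336-12791485: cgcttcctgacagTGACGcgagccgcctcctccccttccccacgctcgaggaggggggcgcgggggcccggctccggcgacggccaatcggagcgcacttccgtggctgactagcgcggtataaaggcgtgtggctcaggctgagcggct
On both strands of the 250 bases before the start, TGACG occurred in 11 of 17 windows of the list (64.7%) against 36.7% of all genes with a window, and a CArG box in 2 of 17 (11.8%) against 1.46%.

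Of 24 immediate early genes tested, KLF10 and BTG2 rose at 2 h and none fell, with a median of 0.23. With the replicate block 10 rose, against 4.68% of all genes, and none fell. At 4 h against DMSO 6 fell and 1, JUN, rose (median -0.30), against 10.5% and 15.4% of all genes. Against 2 h 11 fell and none rose (median -0.57), where 3.64% of all genes fell. With the replicate block 19 fell and none rose, where 10.4% fell. JUNB, a partner of FOS in the AP-1 factor, stood at 19.3, 10.6 and 12.1 TPM under DMSO, 41, 19.8 and 21.5 TPM at 2 h and 10.5, 7.53 and 6.47 TPM at 4 h. Every 2 h library exceeded every DMSO library, but the replicates were spread, and the difference of 0.89 ± 0.30 passed with the replicate block but not in the fit without it (adjusted p = 0.16). Between the times JUNB fell (-1.58 ± 0.30, adjusted p = 0.011). FOS had 1.70, 0.934 and 1.20 TPM at 4 h against 5.69, 3.12 and 3.62 TPM under DMSO (-1.16 ± 0.27, adjusted p = 0.014), and EGR1 1.28, 0.951 and 1.04 TPM against 4.16, 2.83 and 2.68 TPM (-1.0 ± 0.21, adjusted p = 0.0088). JUND, another AP-1 member, fell at 4 h to 20.4, 18.7 and 17.5 TPM, against 35.5, 36.3 and 34.4 TPM under DMSO (-0.88 ± 0.07). JUN went the other way, with 189, 141 and 135 TPM at 4 h against 106, 83.8 and 88.1 TPM (0.73 ± 0.13, adjusted p = 0.0047), and 145, 131 and 140 TPM at 2 h (0.58, adjusted p = 0.054, past the threshold with the replicate block). In TFEB+TFE3 WT cells 16 of 26 such genes rose at 2 h and none fell, where 7.04% of all genes rose, and in ESRRA WT cells 15 of 24 rose and none fell, where 2.51% did. At 4 h 13 fell and 6 rose in TFEB+TFE3 WT cells, where 15.8% of all genes fell and 26% rose, and 11 fell and 2 rose in ESRRA WT cells, where 12.1% fell and 22.3% rose. JUNB there had 26.8, 20.3 and 27 TPM at 2 h against 11.7, 10.9 and 8.68 TPM in TFEB+TFE3 WT cells, and 12.5, 11.5 and 14.2 TPM against 7.22, 7.42 and 6.69 TPM in ESRRA WT cells.

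Of the listed genes of G2 and mitosis more rose than fell. Of 30 tested, HMMR alone was called higher at 2 h. With the replicate block 9 were called higher, against 4.68% of all genes, and none lower. At 4 h 17 rose and 1, CDC20, fell, against 15.4% and 10.5% of all genes. The median was 0.24 against 0.03 over all genes, and 15 and 19 rose under the 2 other scalings. Between 2 h and 4 h 12 rose, against 11.2% of all genes, and none fell. The promoters of CENPA and HMMR are shown because most genes of the list share their CCAAT boxes, the site of the factor NF-Y: 22 of 25 windows (88%) held CCAAT on either strand, against 42% of all genes with a window. Capitals mark CCAAT or its reverse complement ATTGG.
CENPA, chr2:26785906-26786055: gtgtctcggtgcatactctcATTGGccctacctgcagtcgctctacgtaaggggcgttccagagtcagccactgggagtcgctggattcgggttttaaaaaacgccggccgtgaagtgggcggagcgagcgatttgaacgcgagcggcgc
HMMR, chr5:163460482-163460631: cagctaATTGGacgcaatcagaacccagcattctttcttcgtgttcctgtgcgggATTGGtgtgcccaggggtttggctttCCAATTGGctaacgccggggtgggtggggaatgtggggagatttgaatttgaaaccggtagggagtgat
The printed stretch holds 1 of 2 matches of CENPA and 4 of 5 matches of HMMR, of which 2 overlap on opposite strands.

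HMMR, which organises spindle microtubules, stood at 20.3, 20.8 and 20.9 TPM under DMSO, 24.4, 27.3 and 29.2 TPM at 2 h and 36.4, 34.7 and 38.7 TPM at 4 h, and its 3 groups did not overlap (0.36 ± 0.07 at 2 h, adjusted p = 0.036; 0.79 ± 0.07 at 4 h, adjusted p = 0.00056). CENPA, the histone H3 variant of centromeres, had 25.2, 22.6 and 23.4 TPM at 4 h against 14.4, 13.3 and 13.2 TPM under DMSO (0.76 ± 0.06, adjusted p = 0.00048). CDK1, the mitotic kinase, had 86.7, 78.8 and 89.6 TPM at 4 h against 56, 57.7 and 57.5 TPM (0.57, adjusted p = 0.0020). Of 34 S phase genes 2 fell and none rose at 2 h, and 8 fell and 1 rose with the replicate block, where 9.94% of all genes fell and 4.68% rose. At 4 h 2 rose and 4 fell (5.88% and 11.8%, against 15.4% and 10.5% of all genes), and between the times 4 rose and 1 fell, or 9 and 4 with the replicate block. In the TFEB+TFE3 WT cells 17 of the 30 G2 and mitosis genes rose at 4 h and 2 fell, against 26% and 15.8% of all genes. In ESRRA WT cells 16 rose and none fell, against 22.3% and 12.1%.

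Among splicing regulators more genes fell than rose. The 23 tested are SR proteins, their kinases and other RNA-binding proteins such as LUC7L and the cold-inducible CIRBP. At 2 h SRSF7 (-0.32) and TRA2B (-0.23) fell and none rose. With the replicate block 7 fell and 1 rose, against 9.94% and 4.68% of all genes. At 4 h 10 fell and 1, CIRBP, rose (0.17), which is 43.5% and 4.35% against 10.5% and 15.4% of all genes. The 4 h median was -0.14 against 0.03 over all genes, and 8 fell with quantile normalization. LUC7L, which helps the U1 particle choose splice sites, stood at 36.7, 33 and 33.7 TPM under DMSO, 40.1, 32.8 and 31.3 TPM at 2 h and 18.9, 21.1 and 21.2 TPM at 4 h. Its 2 h libraries overlapped DMSO and its 4 h libraries lay below both (-0.73 ± 0.09 against DMSO, adjusted p = 0.0015; -0.73 against 2 h, adjusted p = 0.0033). SRSF2 had 134, 171 and 169 TPM at 4 h against 226, 238 and 231 TPM under DMSO (-0.55, adjusted p = 0.0027). SRSF6 had 41.7, 54.3 and 58.1 TPM against 74.3, 90.4 and 84.3 TPM (-0.69, adjusted p = 0.0044). In TFEB+TFE3 WT cells 16 of the list fell and 3 rose at 4 h, against 15.8% and 26% of all genes. In ESRRA WT cells 12 fell and 2 rose, against 12.1% and 22.3%.

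Cytosolic heat shock genes encode chaperones under the factor HSF1. Of 14 tested, 1 rose and 1 fell at 2 h, against 0.27% and 1.68% of all genes. With the replicate block 4 rose and 4 fell, against 4.68% and 9.94%. At 4 h 5 rose and 1 fell, against 15.4% and 10.5%. The 2 h rise was HSPA1B, which shares reads with its near-identical neighbour HSPA1A, listed at 0, so its values are uncertain; it is named because of the count, outside the naming rule. The fall was DNAJA1, an HSP40 cochaperone, with -0.23 at 2 h (adjusted p = 0.033) and -0.39 at 4 h (adjusted p = 0.0010). DNAJB1, the HSP40 that binds HSP70 in the stress response, chromosome 19, 14514764 to 14518559, stood at 35.8, 47.6 and 44.6 TPM under DMSO, 27.6, 40.1 and 40 TPM at 2 h and 69.5, 85.3 and 80.6 TPM at 4 h. Its difference of -0.25 at 2 h passed with the replicate block but not in the fit without it (adjusted p = 0.44), and at 4 h it rose by 0.87 ± 0.15 against DMSO (adjusted p = 0.0050) and 1.12 ± 0.15 against 2 h (adjusted p = 0.0044). BAG3, a partner of HSP70, stood at 19.1, 18.3 and 18.2 TPM, then 16.1, 15.7 and 15.5 TPM, then 26.4, 23.2 and 23.1 TPM. No 2 of its groups overlapped, with 0.36 at 4 h (adjusted p = 0.0035) and 0.58 between the times (adjusted p = 0.0021). Its lower level at 2 h was not called in the fit without the block. DNAJB1 fell at 2 h in the 2 other experiments without a block (-0.42, adjusted p = 0.00067, in TFEB+TFE3 WT cells and -0.55, adjusted p = 0.00059, in ESRRA WT cells) and rose at 4 h in both (0.28). The heat shock element, searched on both strands as 3 alternating GAA and TTC blocks with 2 bases between them, occurred in 5 of 13 windows of the list (38.5%) and in 0.432% of all genes with a window.

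**Figure D4:**
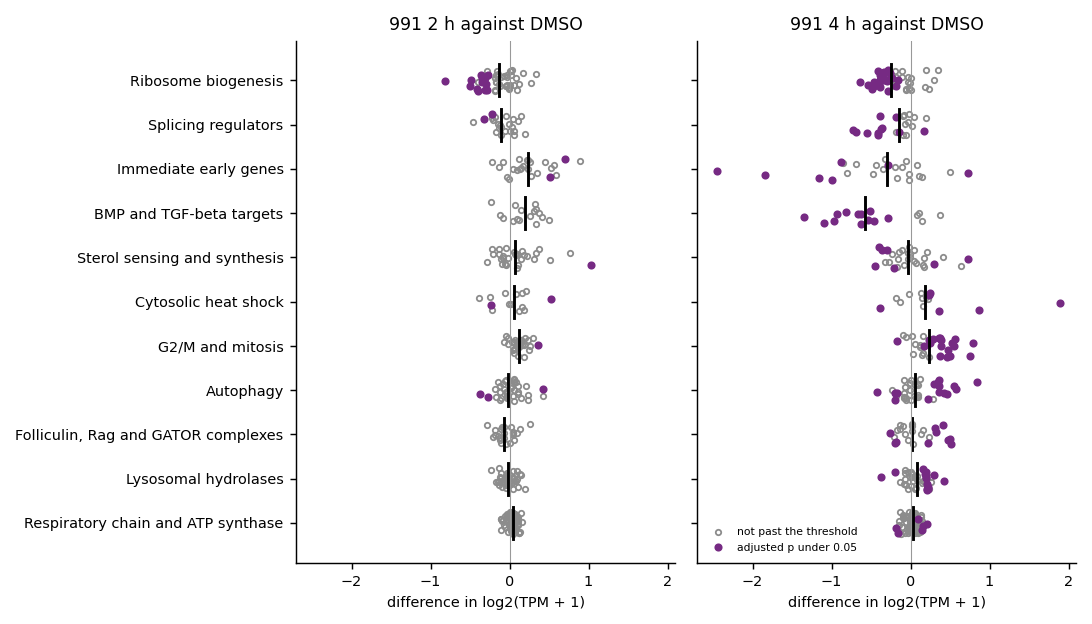
Difference in log2(TPM + 1) between 991 and DMSO for every tested gene of 11 lists at 2 h and 4 h. Each point is a gene, filled where it passed the test, and the bar is the median of the list. Ribosome biogenesis lies below 0 at both times (medians -0.14 and -0.24), BMP targets and immediate early genes change sides (0.20 and -0.58; 0.23 and -0.30), and G2 and mitosis genes lie above 0 at 4 h (0.24).

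The genes of the folliculin pathway had no call at 2 h without the replicate block. With it 1 of 24 rose and 2 fell, where 4.68% of all genes rose and 9.94% fell. FLCN, chromosome 17, 17212213 to 17237188, stood at 5.54, 5.80 and 6.08 TPM under DMSO, 4.47, 5.44 and 5.12 TPM at 2 h and 8.75, 8.30 and 8.37 TPM at 4 h. All 2 h libraries were below all DMSO libraries, a difference of -0.18 that did not pass (adjusted p = 0.22), and the 4 h libraries lay above both groups, 0.66 ± 0.07 above 2 h (adjusted p = 0.0021). FNIP1 and FNIP2, the partners of FLCN, were 0.40 (adjusted p = 0.017) and 0.43 (adjusted p = 0.025) higher at 4 h than at 2 h. RRAGD, the Rag GTPase controlled by that complex, was 0.26 higher at 2 h (adjusted p = 0.091, past the threshold with the replicate block) and 0.51 higher at 4 h (adjusted p = 0.0020). Of 24 genes of the folliculin, Rag and GATOR complexes, 7 rose and 3 fell at 4 h (29.2% and 12.5%, against 15.4% and 10.5% of all genes), 5 rose with median-ratio scaling, and the median of 0.02 was near the 0.03 of all genes. The falls were RRAGA (-0.26), KPTN (-0.20) and SEC13 (-0.18). In the other experiments FLCN had differences at 4 h of 0.03 (adjusted p = 0.73) in TFEB+TFE3 WT cells and 0.06 (adjusted p = 0.22) in ESRRA WT cells. In ESRRA WT libraries FLCN stood at 979 to 1130 TPM, which the labels do not mention. A change of a few TPM, as in AMPK WT cells, would not show at that level. The ESRRA WT difference is therefore no like comparison for this gene.

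Of the genes of AMPK itself some rose at the later time. PRKAA1, the α1 subunit, stood at 6.27, 7.15 and 7.41 TPM under DMSO, 6.03, 6.93 and 6.91 TPM at 2 h and 10.4, 9.75 and 10.6 TPM at 4 h (0.51 ± 0.08 against DMSO, adjusted p = 0.0027; 0.56 against 2 h, adjusted p = 0.0043). Of 6 subunit genes tested, 3 rose at 4 h, against 15.4% of all genes, the others being PRKAB2 (0.41) and PRKAG1 (0.21). None was called at 2 h, and 1 rose and 1 fell with the replicate block, against 4.68% and 9.94% of all genes. PRKAA2, the α2 subunit, had 7.05, 5.67 and 6.12 TPM at 4 h, overlapping 6.37, 5.68 and 6 TPM under DMSO. Of the TFEB family MITF rose at 4 h (0.44, adjusted p = 0.0050), with 2.54, 2.08 and 2.33 TPM against 1.41, 1.52 and 1.39 TPM. Of 39 lysosomal hydrolase genes none was called at 2 h. With the replicate block 1 rose and 3 fell, against 4.68% and 9.94% of all genes. At 4 h 12 rose and 2 fell (30.8% and 5.13%, against 15.4% and 10.5% of all genes), with a median of 0.08 against 0.03, and with median-ratio scaling 7 rose (17.9%). Of 75 respiratory chain genes none was called at 2 h. With the replicate block 5 rose and 1 fell, against 4.68% and 9.94% of all genes. At 4 h 4 rose and 2 fell (5.33% and 2.67%, both below the shares of all genes), which median-ratio scaling turned to 1 and 7. Cytochrome c, CYCS, had 50.4, 45.4 and 51.6 TPM at 4 h against 55.9, 53.3 and 53.6 TPM (-0.14, adjusted p = 0.079).

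Of 37 autophagy genes tested, GABARAPL1 rose at 2 h. ATG101 (-0.37), of the ULK1 complex, and ATG16L1 (-0.27), of the ATG8 lipidation complex, fell. With the replicate block 3 rose and 4 fell, where 4.68% of all genes rose and 9.94% fell, so the falls were near that share. At 4 h 11 rose and 4 fell, which is 29.7% and 10.8% against 15.4% and 10.5% of all genes, so the share of falls was near that of all genes. ATG10, the enzyme that joins ATG12 to ATG5, had 3.25, 3.69 and 4.39 TPM at 4 h against 1.48, 1.52 and 2.01 TPM under DMSO (0.84 ± 0.12, adjusted p = 0.0021), and PIK3C3, the lipid kinase of autophagy, rose by 0.55. ATG4B, the protease that trims ATG8 proteins, fell (-0.42, adjusted p = 0.0019).

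Sterol genes apart from INSIG1 gave few calls at 2 h. Of 29 tested, INSIG1 rose and none fell. With the replicate block 7 rose and 2 fell, against 4.68% and 9.94% of all genes. IDI1, which makes the isoprenoid building block dimethylallyl pyrophosphate, stood at 36, 49 and 44.7 TPM under DMSO, 54.5, 88.2 and 82.9 TPM at 2 h and 38.4, 67.6 and 72.3 TPM at 4 h. Every 2 h library exceeded every DMSO library, yet the difference passed with the replicate block but not in the fit without it (0.77, adjusted p = 0.16). At 4 h 2 genes of the list rose, INSIG1 and INSIG2, and 5 fell, which is 6.90% and 17.2% against 15.4% and 10.5% of all genes. The falls included DHCR7, the last enzyme of cholesterol synthesis (-0.39, adjusted p = 0.0055), and SREBF1, the SREBP-1 gene, at 9.68, 7.92 and 7.76 TPM against 11.9, 12 and 11.8 TPM (-0.45, adjusted p = 0.0063).

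The same times of 991 were measured in KO cells. PRKAA1 stood at 2.16, 2.80 and 2.67 TPM in KO against 6.27, 7.15 and 7.41 TPM in WT cells under DMSO, and PRKAA2 at 4.51, 4.10 and 4.46 against 6.37, 5.68 and 6 TPM. KO and WT did not overlap for either gene. The difference between the KO and WT responses was called for no gene at 2 h (limma, 1294 of 13121 genes at an unadjusted p under 0.05). With the replicate block it was called higher for 137 genes (1.04%) and lower for 119 (0.907%), and without the libraries numbered 1 for 226 and 434. In KO cells themselves 75 genes rose at 2 h (0.572%) and 225 fell (1.71%), and at 4 h 1549 rose (11.8%) and 1361 fell (10.4%). These counts with the replicate block were 600 higher (4.57%) and 1341 lower (10.2%) at 2 h, and at 4 h 2671 higher (20.4%) and 2488 lower (19%). At 4 h the KO response was above the WT response for 143 genes (1.09%) and below it for 140 (1.07%), and with the replicate block for 641 (4.89%) and 776 (5.91%). Those counts fell to 31 and 30 without KO 4 h replicate 2, 39 and 42 without KO 4 h replicate 3, 63 and 58 without KO DMSO replicate 2, 43 and 43 without KO DMSO replicate 3, 69 and 71 without WT 4 h replicate 3, and 80 and 74, 40 and 40 and 50 and 58 without WT DMSO replicates 1, 2 and 3. Without all libraries numbered 1 they were 587 and 992, and without those numbered 2 or 3 no gene was called.

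Of the genes with a lower response in KO cells INSIG1 differed most. In KO cells it stood at 50, 63.6 and 65.6 TPM under DMSO, 59.3, 64.9 and 64.4 TPM at 2 h and 34.5, 33 and 32.6 TPM at 4 h. The KO libraries at 2 h overlapped their DMSO and those at 4 h lay below it, whereas in WT cells both times lay above DMSO, and the KO minus WT difference at 4 h was -1.54 ± 0.16 (adjusted p = 0.0011). MSMO1, a demethylase of the cholesterol pathway, also had a lower response in KO cells (-0.71). KLHL24, which rose in WT cells, had 1.32, 1.22 and 1.07 TPM at 4 h against 1.33, 1.20 and 1.12 TPM under DMSO in KO cells (-0.74 ± 0.11, adjusted p = 0.0065). ZC3H6 (-0.74) and C10orf10 (-0.79), both at a low level, complete the 5 largest.

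At 4 h the KO minus WT difference was called above 0 for 7 of 48 ribosome biogenesis genes (14.6%, against 1.09% of all genes) and below 0 for none, and at 2 h for none of them, or for 8 with the replicate block. Members of the list fell in KO cells as well. At 4 h 14 fell and 2 rose there (median -0.09), against 10.4% and 11.8% of all genes. With the replicate block 19 fell and 5 rose, against 19% and 20.4%. At 2 h 3 fell and none rose in KO cells, where 1.71% of all genes fell. With the block 11 fell and none rose, where 10.2% fell. RRP36, a factor of early ribosomal RNA processing, had 74.9, 76.2 and 76.1 TPM at 4 h against 71.2, 72.1 and 74.6 TPM under DMSO in KO cells, and 45, 48.8 and 46.4 against 60.1, 65 and 66.2 TPM in WT cells (0.50 ± 0.06, adjusted p = 0.0031). For RRS1 the difference was 0.38 ± 0.09 (adjusted p = 0.037), with KO libraries of 48, 42.4 and 44.4 TPM at 4 h against 50.7, 54.1 and 56.2 TPM. Of 47 integrated stress response genes, the targets of ATF4, 10 had a higher response in KO cells at 4 h (21.3%) and none a lower one. The median was 0.24 against -0.02 over all genes. At 4 h 25 rose and 1 fell in KO cells, against 11.8% and 10.4% of all genes. In WT cells 5 rose and 8 fell, against 15.4% and 10.5%. In TFEB+TFE3 WT cells 15 rose and 2 fell at 2 h, against 7.04% and 6.14%, and 17 and 9 at 4 h, against 26% and 15.8%. In ESRRA WT cells 6 rose and 1 fell at 2 h, against 2.51% and 6.48%, and 7 and 12 at 4 h, against 22.3% and 12.1%. CHAC1, a glutathione-degrading enzyme, had 9.83, 12.5 and 11.5 TPM at 4 h against 3.05, 2.31 and 2.18 TPM under DMSO in KO cells, and 2.11, 3.46 and 3.25 against 4.61, 2.02 and 2.69 TPM in WT cells (1.84 ± 0.36, adjusted p = 0.020). DDIT3, the factor CHOP, had 13, 12.6 and 13.7 against 5.67, 6.01 and 6.41 TPM in KO cells, and 6.80, 8.62 and 8.10 against 7.05, 6.56 and 6.79 TPM in WT cells (0.83 ± 0.15, adjusted p = 0.016). KO libraries at 4 h lay clear of their DMSO for both genes, and WT libraries overlapped.

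For BMP targets no gene was called as different between KO and WT at either time in the fit without a block. The response was lower in KO cells for 3 at 2 h and 2 at 4 h, and higher for none, with the replicate block. Without the libraries numbered 1 it was lower for 4 and higher for none at 2 h, and lower for 2 and higher for 6 at 4 h. In KO cells (fit of 18 libraries) 13 of the 16 fell and 1 rose at 4 h (median -0.56), where 10.4% of all genes fell. In WT cells (fit of 9) 12 fell and none rose (median -0.58). The 2 h medians were -0.08 in KO and 0.20 in WT cells. At 2 h 1 fell and none rose in KO cells, where 1.71% of all genes fell. With the replicate block 5 fell and 1 rose, against 10.2% and 4.57% of all genes. ID1 in KO cells had 28.2, 28.3 and 26.9 TPM at 4 h against 74, 37.1 and 40.3 TPM under DMSO (-0.77 ± 0.25, adjusted p = 0.037), and 61.6, 45.3 and 45.3 TPM at 2 h. The KO minus WT difference of 0.58 at 4 h did not pass (adjusted p = 0.44). JUNB in KO cells had 7.87, 9.56 and 10.9 TPM at 2 h against 8.86, 5.26 and 4.56 TPM. DNAJB1 rose in KO cells at 4 h as well, to 105, 105 and 106 TPM, against 52.5, 66.9 and 62.8 TPM under DMSO, with a KO minus WT difference of -0.08 (adjusted p = 0.89). FAM13B fell in KO cells too (-0.51 at 2 h, -0.60 at 4 h). Of the G2 and mitosis genes 10 rose and 1 fell in KO cells at 4 h (median 0.11), against 11.8% and 10.4% of all genes. The KO minus WT difference was -0.40 for HMMR (adjusted p = 0.037) and -0.40 for CENPA (adjusted p = 0.031). HMMR was past the threshold in 13 of 27 other settings and CENPA in 17. FLCN had 8.36, 7.58 and 7.23 TPM at 4 h against 6.63, 8.25 and 7.96 TPM under DMSO in KO cells, and its KO minus WT difference was -0.46 ± 0.11 (adjusted p = 0.042, past the threshold in 10 of 27 other settings).

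**Figure D5:**
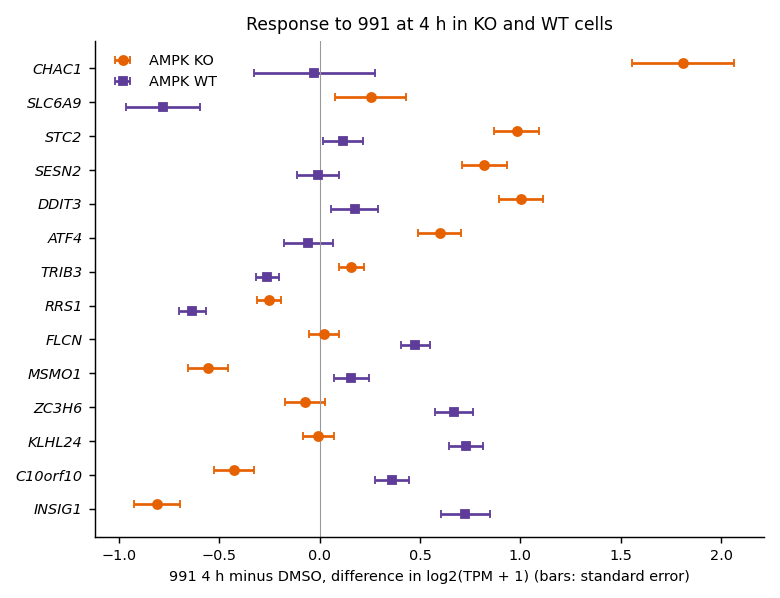
Difference in log2(TPM + 1) between 991 at 4 h and DMSO for 14 genes, with AMPK KO cells above AMPK WT cells in each row and bars for the standard error. CHAC1, SLC6A9, STC2, SESN2, DDIT3, ATF4, TRIB3 and RRS1 had a higher response in KO cells, and FLCN, MSMO1, ZC3H6, KLHL24, C10orf10 and INSIG1 a lower one.

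The early response was set against the same times in the TFEB+TFE3 WT and ESRRA WT experiments as a whole. ESRRA WT cells are not like AMPK WT cells in FLCN, which stood at 979 to 1130 TPM there. Of the genes that rose at 2 h and were tested in both, 24 of 34 (70.6%) also rose in TFEB+TFE3 WT cells, which is 2.67% of the 900 that rose there, and 7.15% of all genes did. In ESRRA WT cells 18 of 35 rose (51.4%), 5.66% of the 318 there, against 2.55% of all genes. Of the 218 falls, 128 also fell in TFEB+TFE3 WT cells (58.7%, and 16.2% of the 788 there) and 107 in ESRRA WT cells (49.1%, and 12.9% of 829). Of all genes tested there 6.14% and 6.48% fell. No gene called at 2 h was called the opposite way in either. At 4 h 1310 of 1979 rises (66.2%) and 800 of 1341 falls (59.7%) were called the same way in TFEB+TFE3 WT cells, and 1286 of 1945 (66.1%) and 720 of 1346 (53.5%) in ESRRA WT cells. As a share of the lists there these are 39.4% of 3322 and 39.5% of 2026, and 45.9% of 2802 and 46.6% of 1544. Of all genes tested 26% rose and 15.8% fell at 4 h in TFEB+TFE3 WT cells, and 22.3% rose and 12.1% fell in ESRRA WT cells. Opposite calls at 4 h numbered 18 rises and 16 falls in TFEB+TFE3 WT cells and 2 and 4 in ESRRA WT cells. INSIG1 rose at both times in both experiments (0.73 and 0.55; 0.82 and 0.13), as did CCNG2 (0.41 and 0.67; 0.47 and 0.44). RRS1 fell at both times in both (-0.68 and -0.82; -0.64 and -0.48), as did FAM13B (-0.98 and -1.12; -0.83 and -0.96). KLF10 rose at 2 h in both (0.46 and 0.92) and at 4 h was -0.41 in TFEB+TFE3 WT and 0.17 in ESRRA WT cells, both past the threshold.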

How the data were processed

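Polyadenylated RNA of HEK 293T cells was sequenced. Per the submitters' processing notes the reads were handled with FastQC, STAR and HOMER on GRCh38, with no versions given. The deposited tables hold TPM made by the authors, 1 transcript per gene, with no read counts, so depth is unknown, and the spread of 3 libraries is the only guide to precision. TPM are relative, so a few very abundant genes can shift all others. Tables were normalized separately, and tests were made within a table. Libraries were grouped by their labelled genotype, treatment and time; 36 columns of per-sample values without a matching sample were not used, and no 2 of the libraries used were identical.

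Genes with TPM of at least 1 in 3 or more fitted libraries were kept. Differences in log2(TPM + 1) were tested with limma 3.58.1 in R 4.3.3 (variances that follow the mean level, 1 mean per group, 6 residual degrees of freedom for the 9 libraries, Benjamini-Hochberg adjustment, calls at 0.05). The KO minus WT response is a difference of differences over 18 libraries. The responses of KO cells themselves come from that fit, with a block shared by KO and WT libraries of the same number. The WT responses come from the fit of 9. Deviations of same-numbered libraries from their group means correlated at 0.72, 0.62 and 0.27 between 2 h and DMSO. Between 4 h and 2 h the correlations were 0.67, 0.57 and 0.35, and both sets were taken as pairing. In KO cells they were 0.57, 0.46 and 0.13 between 2 h and DMSO. Between 4 h and DMSO in KO cells they were 0.35, 0.18 and 0.14, and these sets too were taken as pairing. Between 4 h and DMSO in WT cells they were 0.61, 0.58 and 0.09, which was not taken as pairing because replicate 3 was so low. Replicates 1 and 2 correlated more there than in KO cells at 4 h, so these WT libraries are not shown to be independent.

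Named genes were those with the largest differences among called genes whose libraries do not overlap (10 each way at 2 h and 4 h, 6 each way between the times), 5 each way among called KO minus WT differences, up to 3 each way in each list described, and a fixed panel. Antisense genes, histone genes, short RNAs and near-identical copies were passed over, which skipped 10 genes. HSPA1B, IDI1, JUND and NOG fall outside this rule and were chosen after their values were seen. Some genes that the rule takes are not reported here. The members and the 48 gene lists were chosen with earlier results of these data known, so no list count is independent support. Promoter windows are RefSeq sequences of GRCh38.p14, 250 bases before the start, matched by symbol for 9491 of 12957 tested genes; gene positions are those of the deposited tables.

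The calls were also made after quantile normalization, after median-ratio scaling, without the filter, with 0.1 as pseudocount, with the replicate block, without each library in turn, and with all libraries of the table in 1 fit. The fit of 2 h against DMSO was checked on simulated data. It called 14.7% of genes changed by 0.25, 63.6% of those changed by 0.5 and 89.4% of those changed by 1. Of unchanged genes it called 0.0549%. The simulated libraries varied independently, without the shared deviations of same-numbered libraries. A small change can therefore go without a call. Leaving out all libraries of 1 replicate number was added after the libraries numbered 1 were seen to stand apart. Tables and figures were made with pandas 2.3.3, numpy 2.4.6 and matplotlib 3.10.9 in Python 3.11.15.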

Additional observations from a re-analysis of the deposited data

Results flagged for a closer look

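The response to 991 at 4 h differed between KO and WT cells by the test of the difference itself for 143 genes with a higher and 140 genes with a lower response in KO cells. The 5 largest differences above 0 were CHAC1 (1.84), SLC6A9 (1.04), STC2 (0.87), SESN2 (0.83) and DDIT3 (0.83), all genes of the integrated stress response. ATF4 (0.65) and TRIB3 (0.42) passed too, and ATF4 was past the threshold in 13 of 27 other settings. SESN2, an inhibitor of mTORC1 signalling, had 27.9, 34.2 and 34.1 TPM at 4 h against 19.4, 16.9 and 16.7 TPM under DMSO in KO cells, and 16.3, 17.1 and 15.1 against 19, 15.5 and 14.5 TPM in WT cells. SLC6A9, a glycine transporter, fell in WT cells to 2.70, 2.44 and 1.95 TPM, against 5.83, 4.35 and 4.23 TPM under DMSO, and had 3.18, 4.96 and 4.84 against 3.94, 2.87 and 3.49 TPM in KO cells. The 5 largest differences below 0 were INSIG1 (-1.54), C10orf10 (-0.79), KLHL24 (-0.74), ZC3H6 (-0.74) and MSMO1 (-0.71). C10orf10 stood at 5.01, 3.72 and 5.25 TPM in KO against 2.70, 2.61 and 2.58 TPM in WT cells before 991 was given. FLCN (-0.46) and RRS1 (0.38) also passed this test.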

How the results depend on the processing

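Counts, unlike most directions, moved with the settings. With all libraries of the table in 1 fit the counts were 816 higher and 1541 lower at 2 h, 3541 and 2542 at 4 h, 3259 and 1521 for 4 h against 2 h, 197 and 220 for KO minus WT at 2 h and 748 and 892 at 4 h. With the replicate block they were 606 and 1288, 3412 and 2418, 3086 and 1351, 137 and 119, and 641 and 776 in the same order. Same-numbered libraries were not taken as paired at 4 h against DMSO, where replicate 3 hardly correlated (0.61, 0.58 and 0.09). Replicates 1 and 2 did, so those libraries are not shown to be independent. For KO minus WT they were not taken as paired either, and the lowest correlation, between WT DMSO and KO 2 h libraries, was 0. With median-ratio scaling the 2 h falls numbered 139, 4 h against 2 h gave 940 and 848, KO minus WT at 2 h 11 and 10, and the ESRRA WT falls at 2 h 511. With quantile normalization the 2 h falls were 119 and the rises at 4 h against 2 h 704. Without the filter 2 h gave 16 and 129, and KO minus WT at 2 h 1 and 1. Leaving out libraries gave 0 to 752 rises and 0 to 1389 falls at 2 h, 0 to 3152 and 0 to 2291 at 4 h, 0 to 2189 and 0 to 857 between the times, 0 to 226 and 0 to 434 for KO minus WT at 2 h, and 0 to 587 and 0 to 992 at 4 h. In TFEB+TFE3 WT cells it gave 419 to 854 and 422 to 793 at 2 h and 2635 to 3405 and 1596 to 2045 at 4 h. In ESRRA WT cells it gave 149 to 340 and 286 to 848 at 2 h and 2146 to 2849 and 1142 to 1530 at 4 h. The cause of the spread of these counts was not tested. Of 511 values of named genes, 352 were called as reported and none of these changed sign. Of all 511, 52 had both signs over the settings, among them KLF10 at 4 h (-0.03 to 0.19), ID1 at 2 h (-0.01 to 0.43) and PRKAA2 at 4 h (-0.02 to 0.11). The only one called on the other side was CHAC1, which at 4 h in WT cells ranged from -0.32 without replicate 2 to 0.39 without replicate 1 (adjusted p = 0.018, between 0.018 and 0.99 over 18 settings) and was -0.03 in the fit reported; the cause was not tested. Depth is unknown and limits low genes.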
